A study of Mus musculus with 2 samples.

Results

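The Mir34/Mir449 family consists of 6 microRNA genes at 3 loci, Mir34a, Mir34b with Mir34c, and Mir449a with Mir449b and Mir449c. The members were taken by gene symbol, and all 6 were found among the 2202 microRNA genes that were counted. MicroRNA-seq had been performed on hippocampus of female B6CASTF1/J mice, first-generation hybrids of C57BL/6J and CAST, at 10 days of age. The labels give no treatment and no altered gene, and they describe a layer of hippocampus. The series holds 1 group of 2 biological replicates. Each label names its own set of 3 females, so a library appears to stand for several animals, under a shared donor entry. With 1 group there was no comparison between conditions, and the members were described by their levels, their loci and the spread between the 2 libraries.

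A microRNA is cut from a hairpin precursor, and the seed, bases 2 to 8 of the mature strand, leads it to partly complementary sites in messenger RNAs. The Mir34/Mir449 genes share a seed. Mir34a is a known target of the tumour suppressor p53 and is expressed in many tissues, neurons included, while Mir34b/c and Mir449 are best known from multiciliated cells. In such cells, among them the ependyma that lines the ventricles and the choroid plexus epithelium that secretes cerebrospinal fluid, the family takes part in the formation of motile cilia. In whole tissue, fewer cells of a type and less RNA per cell cannot be told apart, and which cells held the reads was not measured.

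The mature sequences are shown because they define the family, with the seed in capitals. They are from RefSeq (GRCm38.p6), whose table matched 5 members with 9 mature sequences.
mmu-miR-34a-5p: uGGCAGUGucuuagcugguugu
mmu-miR-34b-5p: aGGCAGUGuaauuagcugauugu
mmu-miR-449a-5p: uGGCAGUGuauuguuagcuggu
mmu-miR-449c-5p: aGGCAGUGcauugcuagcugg
Background knowledge places mmu-miR-34c-5p and Mir449b, for which no sequence is printed, in the same seed group. The 4 strands shown carried the seed GGCAGUG, and no gene outside the family among the 1738 mature sequences of the table had it at bases 2 to 8. They also shared the run UAGCUG, which began at base 12 in mmu-miR-34a-5p, at base 13 in mmu-miR-34b-5p and at base 15 in both Mir449 strands. Counted position by position from the 5′ end, mmu-miR-449a-5p and mmu-miR-449c-5p were equal at 18 of 21 positions. mmu-miR-34a-5p was equal to mmu-miR-449a-5p at 15 of 22 positions and to its family namesake mmu-miR-34b-5p at 11 of 22. No gaps were allowed, so strands in which UAGCUG begins at different bases were out of step at this run. The counts for mmu-miR-34a-5p therefore do not rank its likeness to the other strands. In the hairpins, the letters GGCAGUG, searched on the sense strand only, were found in all 5 matched members, Mir34c included, and in 17 of all 1005 hairpins (1.69%).

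The strands of the other hairpin arm are shown because they do not form a single seed group.
mmu-miR-34a-3p: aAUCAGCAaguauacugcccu
mmu-miR-34b-3p: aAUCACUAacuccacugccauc
mmu-miR-34c-3p: aAUCACUAaccacacagccagg
mmu-miR-449a-3p: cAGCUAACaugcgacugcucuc
mmu-miR-449c-3p: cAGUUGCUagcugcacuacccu
Here mmu-miR-34b-3p and mmu-miR-34c-3p shared a seed and were equal at 17 of 22 positions, and the other 3 strands each had a seed of their own. The counts are per gene and do not separate the arms, so the levels below are those of the hairpin's reads as a whole.

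Mir34a (ENSMUSG00000065493.1) lies on the plus strand of chromosome 4, at chr4:150068454-150068555 in mm10, 18809 bases upstream of the protein-coding gene Gpr157. Its last 17 bases overlap the exon of Gm37795, an unclassified transcript on the same strand. Mir34c (ENSMUSG00000065587.1, chr9:51103034-51103110) and Mir34b (ENSMUSG00000065492.1, chr9:51103562-51103645) lie on the minus strand with 451 bases between them. Both are inside an intron of Btg4, which encodes an adaptor of messenger RNA deadenylation and is transcribed from the opposite strand. Mir449c (ENSMUSG00000076146.1, chr13:113035983-113036091), Mir449b (ENSMUSG00000078027.1, chr13:113037419-113037498) and Mir449a (ENSMUSG00000065575.1, chr13:113037534-113037624) lie in this order in an intron of Cdc20b, on its strand. The neighbours upstream of them are Mcidas, 35588 bases away, and Ccno, 45205 bases away, which encode a regulator of multiciliated cell differentiation and a cyclin required for making many centrioles. None of the 6 faces another annotated microRNA gene across the strands.

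Replicate 1 held 5479267 sense-strand counts on microRNA genes and replicate 2 held 3563226. Levels are given as counts per 1000000 of these (CPM). A microRNA read covers about a whole mature strand, so read levels of different genes were compared without division by length. How closely the read levels of different sequences follow their RNA amounts was not tested. Detection meant 10 or more counts in both libraries, which 429 of 2202 genes reached. The libraries differed far beyond sampling noise, with a chi-square statistic of 395 per gene over 564 genes, and were treated as separate samples. The p-values below measure the difference between these 2 libraries and not an effect of a condition.

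The family held 0.397% of the sense counts in replicate 1 (exact Clopper-Pearson interval 0.391% to 0.402%) and 0.357% in replicate 2 (0.351% to 0.363%), a mean of 0.377% ± 0.0279 (SD, n = 2). These intervals do not overlap, so the difference between the libraries was larger than counting error, which is the error they cover. Of the 6 members, Mir449a, Mir34c, Mir34a and Mir34b were detected. Mir449c and Mir449b stayed below the minimum in 1 or both libraries.

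The Mir449 locus held the largest part of the family's counts, with 53.9% in replicate 1 (interval 53.3% to 54.6%) and 48.4% in replicate 2 (47.5% to 49.2%). The Mir34b/c locus held 33.97% in replicate 1 (33.3% to 34.6%) and 39.95% in replicate 2 (39.1% to 40.8%). Mir34a held 12.1% and 11.7%. The Mir449 and Mir34b/c loci thus carried most of the family's reads in both libraries, and the cells that held these reads were not measured. Mir449 counts exceeded Mir34b/c counts 1.59-fold in replicate 1 (1.54 to 1.63) and 1.21-fold in replicate 2 (1.17 to 1.26). The order of these 2 loci was therefore the same in both libraries, and its size differed between them by more than counting error.

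Mir449a had 11700 counts in replicate 1 and 6149 in replicate 2. These gave 2135 and 1726 CPM, a mean of 1930 ± 289.7 CPM (SD, n = 2), and placed it 77th and 81st among the 429 detected genes. Mir449a made up nearly the whole output of its locus. Mir449c, whose 5p strand differs from that of Mir449a at few positions, had 18 counts in replicate 1 and 4 in replicate 2, or 3.29 and 1.12 CPM. Mir449b, whose hairpin ends 35 bases before that of Mir449a begins, had 3 counts and 1 count, or 0.548 CPM (exact Poisson interval 0.113 to 1.60) and 0.281 CPM (0.00711 to 1.56). With counts of 3 or fewer in each library, the level of Mir449b was poorly measured, and so few reads do not settle whether it was expressed.

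Mir34c had 7192 counts in replicate 1 and 4934 in replicate 2, or 1313 and 1385 CPM, with a mean of 1349 ± 51.0 CPM (SD, n = 2). It ranked 100th in replicate 1 and 97th in replicate 2. Mir34b, its neighbour, had 190 and 149 counts, or 34.7 and 41.8 CPM, a mean of 38.2 ± 5.05 CPM, and ranked 256th and 259th. The pair lies on a single strand within a short distance, and the 2 genes stood at very different levels. Mir34a had 2625 and 1485 counts, or 479 and 417 CPM, a mean of 448 ± 44.1 CPM (SD, n = 2), and ranked 144th and 147th. The median of all detected genes was 87.8 CPM, so Mir449a, Mir34c and Mir34a lay above it and Mir34b below it.

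**Figure D1:**
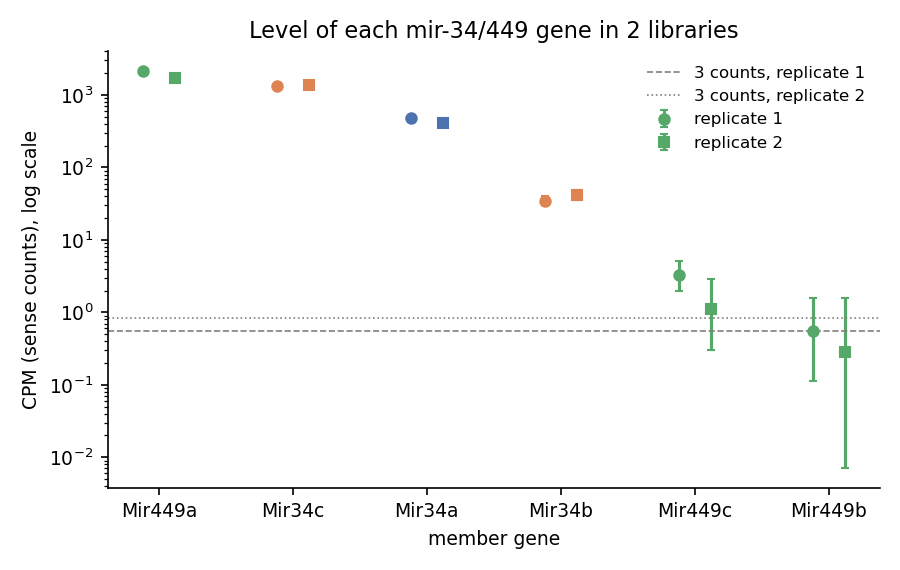
Level of each member in CPM on a log scale, with circles for replicate 1 and squares for replicate 2. Colours mark the 3 loci, bars are exact Poisson intervals (counting error only) and the lines mark the level of 3 counts in each library. Mir449a, Mir34c and Mir34a lie at 417 CPM or higher in both libraries, and Mir449b lies on or under the lines.

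The members kept 1 order in both libraries, Mir449a, Mir34c, Mir34a, Mir34b, Mir449c and Mir449b from high to low. The CPM ranges of neighbours in this order did not overlap between any adjacent pair, with 2 values each. The closest pair at the top was Mir449a over Mir34c, at 1.63-fold in replicate 1 (interval 1.58 to 1.68) and 1.25-fold in replicate 2 (1.20 to 1.29). Mir34c exceeded Mir34a 2.74-fold and 3.32-fold, and Mir34a exceeded Mir34b 13.8-fold and 9.97-fold. For the lowest pair, Mir449c over Mir449b, the ratio was 6-fold (1.75 to 31.8) in replicate 1 and 4-fold (0.396 to 197) in replicate 2. The order of Mir449c and Mir449b was therefore not resolved in replicate 2.

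**Figure D2:**
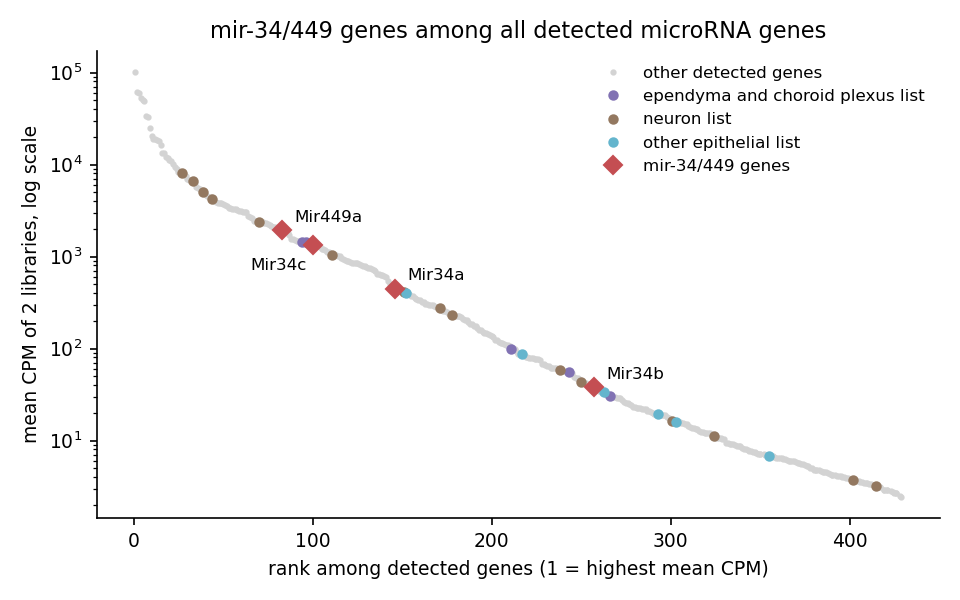
Mean CPM of 2 libraries on a log scale against rank for the 429 detected microRNA genes, with the 4 detected family members as red diamonds. Members of 3 lists of other microRNAs are coloured. Mir449a, at 1930 CPM, and Mir34c, at 1349 CPM, lie beside the leading members of the ependyma and choroid plexus list, Mir1298 and Mir204. The other detected members of that list lie at 99.9 CPM or lower.

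Within each cluster, a single hairpin carried nearly all reads. Mir34c exceeded Mir34b 37.9-fold in replicate 1 (interval 32.8 to 44.0) and 33.1-fold in replicate 2 (28.1 to 39.2). Mir449a exceeded Mir449c 650-fold in replicate 1 (411 to 1097) and 1537-fold in replicate 2 (600.1 to 5644). The counts of Mir449a and Mir449b had a ratio of 3900 (1334 to 18914) and 6149 (1103 to 242912), which rests on the 3 counts and 1 count of Mir449b. The wide intervals come from the few counts of Mir449c and Mir449b, and the direction was the same in both libraries.

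These folds were set beside those of other neighbours. Adjacent microRNA genes within 10 kb on a strand gave 131 pairs whose higher gene had a mean of at least 100 counts, and fewer than 3 counts in the lower gene were set to 3 counts per library. This was needed in 30 pairs, that of Mir449a and Mir449b among them. The median fold was 19.8, as a geometric mean of the 2 libraries, and 53 pairs (40.5%) had a fold of at least that of Mir34c over Mir34b, the pair itself included. A fold of this size was thus common among the counted pairs, though 28 of the 53 pairs had a lower gene set to 3 counts. Reads with several places were not counted, and how far this lowered genes with near-identical copies was not tested. For Mir449a over Mir449b, 6 pairs (4.58%) had at least its fold, with 5 pairs in replicate 1 alone and 7 in replicate 2 alone. Folds that rest on 3 set counts are bounds, so the place of this pair among the top pairs was not resolved.

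**Figure D3:**
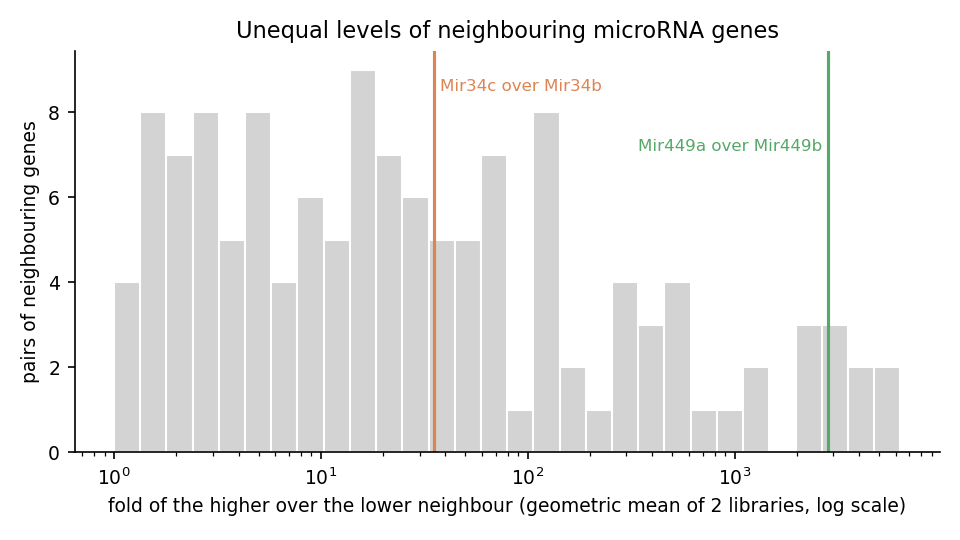
Number of neighbouring microRNA gene pairs (131 in all) by the fold of the higher over the lower gene, a geometric mean of 2 libraries on a log scale. The vertical lines mark Mir34c over Mir34b, near the middle of the distribution, and Mir449a over Mir449b, at its upper end.

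The counts leave out reads with several matching places, which were 43.2% and 39.3% of all reads in replicates 1 and 2. The annotated hairpin sequences of the 6 members were therefore searched, on both strands, for stretches shared with the 2201 other microRNA genes. The longest was 14 bases, between Mir449a and Mir679, and the others were 11 or 12 bases. The longest stretch that Mir34c shared was 11 bases, with Mir34b and with Mir27b. Each is shorter than the mature strands of 21 to 23 bases. The rest of the genome was not searched, so matches elsewhere were not tested.

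Between the libraries, Mir449a and Mir34a were lower in replicate 2 and Mir34c and Mir34b did not pass the test. The ratio of replicate 2 to replicate 1, scaled with TMM factors, was -0.37 on the log2 scale for Mir449a (two-sided exact binomial test over all detected genes, Benjamini-Hochberg adjusted p = 8.72e-60). It was -0.26 for Mir34a (exact binomial test, adjusted p = 4.94e-08). For Mir34b the log2 ratio was 0.21 (interval -0.11 to 0.53, exact binomial test, adjusted p = 0.276). For Mir34c it was 0.02 (interval -0.04 to 0.07, exact binomial test, adjusted p = 0.647). With scaling by library totals, Mir34c passed the threshold, with 0.08 as its log2 ratio (adjusted p = 0.00725 in the exact binomial test).

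Of the 4 members tested, 2 differed between the libraries, where 61.3% of all 429 detected genes did. With a minimum of 100 counts in each library, which all 4 members passed, 221 of 267 genes (82.8%) differed. Both members that differed were lower in replicate 2, as were 32.6% of all detected genes, and no member was higher, as were 28.7%. The median log2 ratio was -0.12 over the 4 members and 0.05 over all detected genes. A larger absolute ratio than that of Mir449a was found in 46.2% of detected genes, than that of Mir34a in 57.8%, than that of Mir34b in 66.2% and than that of Mir34c in 98.1%. These shares are over detected genes of any level, and genes of like level were not compared apart. Within that scope, the members differed between libraries by about as much as other genes or less. Mir34c was among the genes with the smallest ratios. With 4 of 6 members past the minimum, these values leave out Mir449c and Mir449b.

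**Figure D4:**
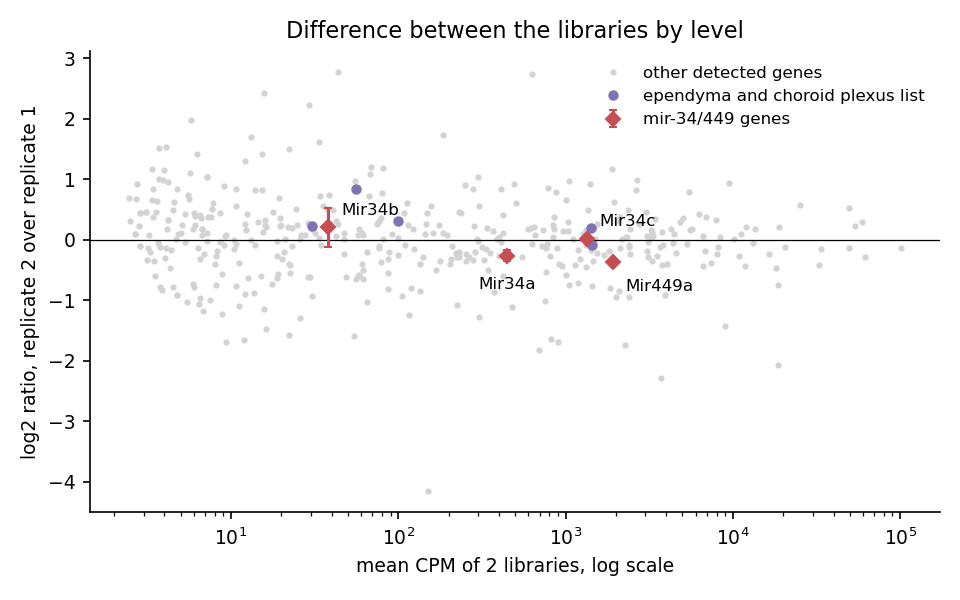
Log2 ratio of replicate 2 over replicate 1 against mean CPM on a log scale for the 429 detected genes, with family members as red diamonds and the ependyma and choroid plexus list in purple. Bars are exact 95% intervals of counting error. Mir449a and Mir34a lie under 0, at -0.37 and -0.26, and Mir34c and Mir34b lie at 0.02 and 0.21.

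The cell types named for the family were looked at through other microRNAs. A list of 8 microRNAs of ependyma and choroid plexus outside the family had 7 matched genes. Of these, 5 lie within Htr2c, a serotonin receptor gene with high expression in choroid plexus. Whether the list's genes are expressed in ependyma and choroid plexus alone was not tested. Of the 7, 5 were detected and none was at 0 in both libraries. Mir1298, in Htr2c, stood at 1449 and 1422 CPM, and Mir204, which is abundant in choroid plexus and pigmented epithelium, stood at 1297 and 1557 CPM. Mir211, which shares its seed with Mir204, had 15 and 6 counts. The levels of Mir1298 and Mir204 were thus in the range of Mir449a and Mir34c. The rest of the list stood far lower, at mean levels of 99.9 CPM for Mir448, 55.7 for Mir1264 and 30.3 for Mir764. Mir1912 stood at 6.44 CPM and Mir211 at 2.21 CPM.

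Summed over the list, the level was 2903 and 3212 CPM in replicates 1 and 2, and that of the family was 3965 and 3570 CPM. The family's total was lower in replicate 2 and the list's total was higher. Family reads exceeded the list's 1.37-fold in replicate 1 and 1.11-fold in replicate 2. In the exact binomial test, 3 of the 5 detected list genes (Mir204, Mir448 and Mir1264) were higher in replicate 2 and Mir1298 was lower, at a log2 ratio of -0.09. Over all detected genes, 28.7% were higher and 32.6% lower. Mir1264 stood at 38.7 and 72.7 CPM. The part of these cells in the family's levels was not tested.

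As a sum, neuron microRNAs stood far higher than the family, though single genes of the list ranged widely. The 18 genes of the list summed to 28447 and 32346 CPM in replicates 1 and 2, which was 7.17 and 9.06 times the family's total, and 16 of 18 members were detected. Its leading gene, Mir132, which is induced by neuronal activity, stood at 8514 and 7545 CPM. Mir137, a regulator of neuronal maturation, stood at 3904 and 4643 CPM. Mean levels were 6638 CPM for Mir128-1, 5024 for Mir138-1, 2397 for Mir128-2 and 1937 for Mir138-2. Below the level of Mir34c stood Mir129-2 at 1041 CPM, Mir129-1 at 279, Mir218-2 at 230, Mir153 at 43.5 and Mir218-1 at 11.1 CPM. Mir124a and Mir9 each have near-identical copies, and reads with several places were not counted, so their levels were not determined. The same limit may hold for Mir128, Mir129, Mir138 and Mir218, each of which is in the list as a pair of genes. The list's sum and its ratio to the family share this limit. In the exact binomial test, 10 of the 16 detected genes were higher in replicate 2 and 4 were lower, beside 28.7% and 32.6% of all detected genes. The 448 CPM of Mir34a was near the 410 ± 176 CPM of Mir212 (SD, n = 2), which is processed from the same transcript as Mir132.

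Other epithelial microRNAs stood low. The 8 genes of the list summed to 548 and 590 CPM in replicates 1 and 2. Of these, 6 were detected, and Mir375, known from neuroendocrine cells, made up most of it at 386 and 418 CPM. Mir203, of skin epithelium, stood at 109 and 64.3 CPM, and Mir200a and Mir141 were below the minimum, with 3 and 15 and with 9 and 9 counts. In the exact binomial test, 2 of the 6 detected genes were higher in replicate 2 and 1 was lower, beside the same 28.7% and 32.6%. Mir449a and Mir34c each stood above this whole list in both libraries.

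The genes closest to each member in level were named by the distance in log2(CPM + 1) over the 2 libraries, which says nothing of a shared pattern across conditions. Mir34c lay nearest to Mir671, at 1337 and 1318 CPM, and to Mir322, at 1219 and 1421 CPM. Mir449a lay nearest to Mir708, at 1889 and 1746 CPM, and to Mir666, at 1810 and 1593 CPM. Mir34a lay nearest to Mir669c, at 428 and 372 CPM, and to Mir1981, at 407 and 416 CPM. Mir34b lay nearest to Mir679, at 34.7 and 43.8 CPM, and to Mir701, at 30.3 and 44.9 CPM. These distances were between 0.06 and 0.26 on the log2 scale.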

How the data were processed

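MicroRNA-seq of RNA below 30 nt was deposited by the authors as unnormalized read counts for each microRNA gene, with a separate file for each library, on mm10 with the GENCODE M21 annotation, per the deposited file notes. No aligner or counting program is named in those notes or the labels. Counts came without regard to strand and for each strand. The strand with the larger total on gene rows was taken as sense. The 4 rows without a gene were left out of library sizes; in replicates 1 and 2 they held 14.2% and 18.0% unmapped reads, 43.2% and 39.3% reads with several places and 6.16% and 5.17% reads outside microRNA genes.

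All 2202 gene identifiers matched GENCODE M21. Libraries were compared gene by gene with a two-sided exact binomial test (SciPy 1.17.1) against TMM-scaled library sizes (edgeR 4.0.16, factors 0.979 and 1.02), with Benjamini-Hochberg adjustment at 0.05 over all detected genes and 0.5 counts added in ratios. The test was checked on data simulated with counting error alone, which does not cover the larger differences between these libraries. Intervals at 95% cover counting error only, since reads are not independent molecules. Alternatives were DESeq2 1.42.0 size factors, library totals, all reads, other minimums, counts without regard to strand and each library left out. Where reads carry CAST alleles, their mapping to the reference was not examined.

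Named genes are the 6 members, the 3 marker lists, the 2 genes nearest in level to each detected member, and overlapping genes. Mir1911 of the ependyma and choroid plexus list had no matching symbol. Members and lists were chosen with earlier results of these data known. The comparison of neighbouring pairs was added after the data were seen.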

Additional observations from a re-analysis of the deposited data

Results flagged for a closer look

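Counts on the opposite strand are outside the sense counts used above, and Mir34b was the only member that had any. It had 10 in replicate 1 and 4 in replicate 2, above the 3 counts used here as a floor. They made up 5.0% (exact interval 2.42% to 9.00%) and 2.61% (0.717% to 6.56%) of its reads on both strands. Mir34c, its neighbour, had 0 opposite-strand counts beside 7192 and 4934 sense counts. Over the 402 detected genes with no microRNA gene on the opposite strand, the share was 0.00233% and 0.00161%. Of these genes, Mir34b, Mir203 and Mir3083 had more than 3 opposite-strand counts in both libraries; Mir203 had 5 and 4, and Mir3083 had 46 and 18. The opposite strand at Mir34b is that of Btg4, in whose intron it lies.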

How the results depend on the processing

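With all reads in place of sense counts as the denominator, the family's share was 0.139% and the summed levels were 1131 CPM for the ependyma and choroid plexus list, 11252 CPM for the neuron list and 210.4 CPM for the other epithelial list. With counts made without regard to strand, the other epithelial list stood at 606 CPM. Leaving out either library gave family shares from 0.357% to 0.397%. Mir449a and Mir34a were called lower in replicate 2, and Mir34b was not called, under each of the 6 other settings of the test, while Mir34c was called with library totals alone. Between 221 and 286 genes were called by the settings. Of the calls, 46.8% were higher in replicate 2 under TMM scaling and 52.7% under library totals, and the members' directions were the same with both. With a minimum of 1 count all 6 members were detected. No paired analysis was possible because the series has a single group. Depth limits the values of Mir449b and Mir449c, and 2 libraries limit every SD.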
